A study of Homo sapiens with 6 samples.

Results

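The comparison set C4-2B MDVR cells given PTUPB at 20 µM together with enzalutamide against the same cells given enzalutamide, and so asked what the higher PTUPB dose adds once the antiandrogen is already present. It takes 2 of the 6 libraries of the series, 1 on each side, and follows 12960 of the 58735 genes in the deposited table, those whose mean over all 6 libraries was 1 or more in FPKM, the fragments of a gene scaled to its length and to the size of the library. All groups are the same cells after 2 days of treatment, a form of the human prostate tumour line C4-2B that resists enzalutamide. Enzalutamide is an antiandrogen, and PTUPB is a compound that inhibits both cyclooxygenase-2 and soluble epoxide hydrolase. The other 4 libraries had PTUPB at 10 µM with enzalutamide, PTUPB at 20 µM, PTUPB at 10 µM, and DMSO, the vehicle. Enzalutamide is labelled as 20 µM on the single-agent library, while its dose in the combinations is not labelled. With 1 library a group there is no replicate check and no test, so every difference is a value between 2 libraries, and the intervals beside folds cover the counting of fragments only.

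As background, cells that accumulate unfolded protein in the endoplasmic reticulum signal through the sensors IRE1, PERK and ATF6, which raise chaperones, slow protein synthesis and, when the stress lasts, turn on pro-death genes through ATF4 and CHOP. Prostate luminal cells depend on androgen, on the pioneer factor FOXA1 and on other lineage factors for secretory genes such as that of prostate-specific antigen. The same tumours are known for high fatty acid synthesis and for proliferation driven by MYC and cyclin D1.

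Library depth, recovered from the deposited values, ran between 20156523 and 29450436 fragments over the 6 libraries, with the combination library the shallowest and the enzalutamide library the deepest. FPKM of 1 or more was reached by 12285 genes in the combination and 12709 in the enzalutamide library. Of the 8 luminal epithelial markers, 7 and 8 reached 1 FPKM in the combination and in the enzalutamide library, and their summed level was 332 FPKM in the combination against 977 FPKM with enzalutamide. The 4 basal markers summed to 0.0889 FPKM in the combination and 0.0142 FPKM with enzalutamide, with 3 of the 4 at 0 in each library. The 9 blood markers summed to 0.282 FPKM in the combination and 0.134 FPKM with enzalutamide, with 6 of the 9 at 0 in each. The 6 endothelial markers summed to 0.0734 FPKM in the combination and 0.299 FPKM with enzalutamide. The 9 stromal markers summed to 7.11 FPKM in the combination and 3.77 FPKM with enzalutamide, with 5 and 2 of the 9 at 0, and COL1A1, a collagen gene, gave 6.47 FPKM of the sum in the combination. All 8 luminal markers were therefore present in the enzalutamide library. Their sum was lower in the combination, mainly through FOLH1, whereas the luminal keratins KRT8 and KRT18 were at higher levels there. The basal, blood and endothelial markers were near 0 in both libraries.

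Adding PTUPB at 20 µM to enzalutamide was accompanied by very high levels of reticulum stress and p53-linked genes and by low levels of prostate lineage factors, MYC, mitotic and replication genes and many fatty acid synthesis genes. Differences are in log2(FPKM + 1), combination minus enzalutamide, and a gene is counted as higher or lower when the difference is at least 1 in size; folds are ratios of the FPKM themselves, and the log2 scale understates the differences of low genes. In bulk RNA, fewer cells with a transcript and less of it per cell cannot be told apart. By that measure 1752 genes (13.5% of the 12960) were higher and 2047 (15.8%) lower, while 9161 lay within log2 1. These shares are the background for the counts of every gene list below. A list whose counts lie near them does not stand out from all genes. The median of all genes was 0.01, with quartiles of -0.63 and 0.60. At log2 3 or more there were 59 higher and 103 lower genes, and at log2 4 or more 9 and 26. RARRES3 (1.00001) and EIF2A (0.999889) lay just inside and just outside the upper limit, and MCM3AP-AS1 (-1.00013) and APC2 (-0.999592) at the lower one. At the level filter, C3orf67 was just inside (mean 1.00036 FPKM) and ZNF790 just outside (0.999964 FPKM).

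**Figure D1:**
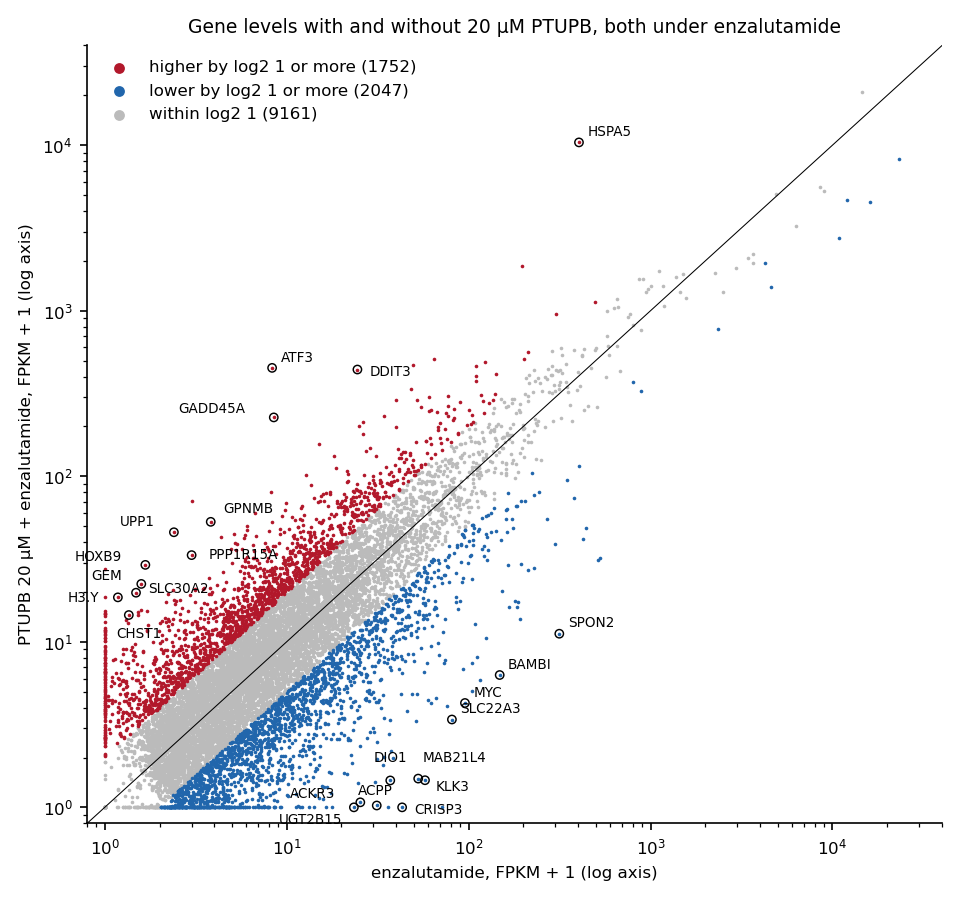
Each point is 1 of the 12960 genes, with its level in the combination library on the vertical axis and in the enzalutamide library on the horizontal axis, both FPKM + 1 on log axes; the diagonal marks equal levels, and colours mark the 1752 higher and 2047 lower genes. The circled genes are among the largest differences each way of protein-coding genes with 10 FPKM or more in either library, with HSPA5 far above the diagonal at a high level and CRISP3, UGT2B15 and ACPP on the floor of the combination library.

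Among protein-coding genes with 10 FPKM or more in either library, the 5 largest positive differences were in ATF3, GADD45A, HSPA5, UPP1 and DDIT3. HSPA5 encodes BiP, the main chaperone of the reticulum lumen, and it alone held 3.70% of all fragments of the combination library, against 0.151% in the enzalutamide library. Promoters of such chaperone genes are known for the endoplasmic reticulum stress element, CCAAT, then any 9 bases, then CCACG, which was searched on both strands in 27305 RefSeq promoters (GRCh38.p14; 250 bases before to 50 after the start). Only 22 of these (0.0806%) held the exact element, among them 6 of the 15 promoters found for the chaperone list (40%) and that of XBP1. Among genes kept it was in 14 of 9257 promoters (0.151%), with 5 of 1124 promoters of higher genes against 0 of 1369 of lower genes. The matches in the chaperone list and in XBP1 are shown because HSPA5, one of the largest differences, shares the element with genes that differed little, with the element in capitals, as written or reversed and complemented. They are descriptions of the letters in these windows and not shown to be sites in use.
HSPA5 (chr9:125241381-125241419, minus strand): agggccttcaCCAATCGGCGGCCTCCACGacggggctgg
HSP90B1 (chr12:103930206-103930244, plus strand): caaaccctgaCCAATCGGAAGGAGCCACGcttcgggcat
XBP1 (chr22:28800593-28800631, minus strand): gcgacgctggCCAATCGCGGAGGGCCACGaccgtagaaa
CANX (chr5:179698768-179698806, plus strand): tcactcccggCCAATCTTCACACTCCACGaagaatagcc
CALR (chr19:12938374-12938412, plus strand): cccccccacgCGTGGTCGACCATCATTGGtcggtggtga
CRELD2 (chr22:49918544-49918582, plus strand): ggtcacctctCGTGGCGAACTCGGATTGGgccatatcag
ERO1B (chr1:236282173-236282208, minus strand): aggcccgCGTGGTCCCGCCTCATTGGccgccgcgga

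Among the 7 genes shown the differences ran from 0.65 for CRELD2 to 4.68 for HSPA5, with 1.00 for ERO1B. HSPA5 stood at 10392 FPKM in the combination library and 403 FPKM in the enzalutamide library, 25.8-fold higher (95% counting interval 25.5 to 26.0). HSP90B1, the reticulum member of the HSP90 family, was at 1124 FPKM in the combination against 493 FPKM with enzalutamide. The lectin chaperones were closer between the libraries: CALR had 989 FPKM in the combination and 578 FPKM with enzalutamide. CANX had 259 FPKM in the combination against 137 FPKM with enzalutamide, a difference of 0.91, and XBP1, the transcription factor gene that IRE1 activates by splicing, a difference of 0.92 (389 FPKM in the combination against 205 FPKM with enzalutamide). Gene-level values do not separate spliced from unspliced XBP1.

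Over the whole chaperone list, 9 of 16 genes kept were higher, 0 were lower and the median was 1.03. DNAJB9, a co-chaperone of BiP, was the next largest, at 156 FPKM in the combination and 14.1 FPKM with enzalutamide (11.1-fold). HYOU1, a nucleotide exchange factor for BiP, stood at 249 FPKM in the combination against 60.9 FPKM with enzalutamide. The disulfide isomerases lay much lower in the list: the difference was 0.69 for PDIA3, 0.54 for P4HB, 0.26 for PDIA6 and -0.16 for PDIA4. Degradation of reticulum proteins showed the same profile in 6 of its 10 genes kept, with 0 lower and a median of 1.13. HERPUD1, a membrane scaffold of the degradation complex, was at 287 FPKM in the combination and 38.7 FPKM with enzalutamide. SELENOS, another member of that complex, was at 77.6 FPKM in the combination against 16.2 FPKM with enzalutamide. EDEM1 and DERL1, which hand misfolded proteins to export, were within log2 1 (0.61 and 0.24).

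Upstream, the sensors themselves differed little, with 1 of 8 higher, 1 lower and a median of 0.37. ERN1, which encodes IRE1, had 36.0 FPKM in the combination against 11.4 FPKM with enzalutamide. EIF2AK3 (PERK) and ATF6 were within log2 1, at 0.72 and 0.53, and MBTPS2, the protease gene that releases ATF6, was lower at -1.12. Their transcription factors and feedback genes were another matter: 8 of 12 were higher, 0 lower, with a median of 2.13. ATF3, an early stress factor, stood at 450.5 FPKM in the combination and 7.32 FPKM with enzalutamide (61.6-fold, interval 57.5 to 66.0), the largest difference of any protein-coding gene with 10 FPKM or more in either library. DDIT3, which encodes CHOP, was at 440.3 FPKM in the combination against 23.5 FPKM with enzalutamide. Feedback was included: PPP1R15A, the phosphatase subunit that reverses the block of translation, had 32.4 FPKM in the combination and 2.00 FPKM with enzalutamide. TRIB3, a pseudokinase that restrains ATF4, was at 229.6 FPKM in the combination against 33.3 FPKM with enzalutamide. ATF4, which is controlled mainly by translation, differed by 0.52 (305 FPKM in the combination against 212 FPKM with enzalutamide), and ATF5 by -0.94.

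The genes that ATF4 is known to serve in amino acid supply did not differ in a common direction. Of 19 genes for amino acid transport and synthesis 1 was higher and 4 were lower, with a median of 0.02, beside 13.5% higher and 15.8% lower of all genes kept. SLC3A2, the heavy chain shared by several amino acid transporters, was at 506 FPKM in the combination against 63.8 FPKM with enzalutamide, while SLC7A5, one of its light chain partners, was at 36.7 FPKM in the combination against 120.0 FPKM with enzalutamide. PSAT1 and PSPH, enzymes of serine synthesis, were 2.79-fold and 2.96-fold lower. SLC7A11, the cystine transporter, was near equal at 28.7 FPKM in the combination and 25.1 FPKM with enzalutamide, and the asparagine synthetase gene ASNS differed by 0.66. Of 18 cytosolic tRNA synthetases, the enzymes that charge tRNAs with amino acids, 5 were higher, 2 lower and the median was 0.71. GARS was at 245 FPKM in the combination and 66.2 FPKM with enzalutamide. SARS was at 265 FPKM in the combination against 75.8 FPKM with enzalutamide. AARS was at 224 FPKM in the combination against 82.3 FPKM with enzalutamide; QARS, in contrast, was 2.89-fold lower.

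A motif that ATF4 with a C/EBP partner can bind, TGATGNAAN on either strand, occurred in 6 of the 14 promoters found for the synthetases (42.9%), against 154 of 9257 promoters of genes kept (1.66%) and 1002 of all 27305 (3.67%). In the promoter of ATF3 and in that of SLC3A2 it also occurred. Some are shown to set a gene that was higher in the combination (AARS, SLC3A2) beside ones within log2 1 that carry the same letters (MARS, NARS, TARS), with the motif in capitals. The 6 synthetases with these letters differed by 1.43 (AARS), 0.86 (TARS), 0.81 (NARS), 0.65 (MARS), 0.63 (CARS) and -1.20 (IARS), while GARS and SARS, with larger differences, had no match in this window.
AARS (chr16:70289676-70289704, minus strand): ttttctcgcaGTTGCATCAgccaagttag
MARS (chr12:57488053-57488081, plus strand): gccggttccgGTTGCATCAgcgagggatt
NARS (chr18:57621804-57621832, minus strand): ctacgctctcTGATGCAACgccggaatcg
TARS (chr5:33440956-33440984, plus strand): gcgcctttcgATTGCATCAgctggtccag
ATF3 (chr1:212565206-212565234, plus strand): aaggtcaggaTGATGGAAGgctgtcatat
SLC3A2 (chr11:62881725-62881748, plus strand): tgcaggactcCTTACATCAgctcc

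Targets of p53 formed the list with the next highest median, at 1.84: 17 of 21 genes kept were higher and 0 lower. CDKN1A, which encodes the cell cycle inhibitor p21, was at 469 FPKM in the combination and 48.4 FPKM with enzalutamide (9.68-fold, interval 9.37 to 10.0). GADD45A, a growth arrest gene that stress factors also induce, stood at 226 FPKM in the combination against 7.49 FPKM with enzalutamide. More specific members were higher too, among them the p53 ligase gene MDM2 (38.7 FPKM in the combination against 9.75 FPKM with enzalutamide). AEN, a nuclease gene, had 37.9 FPKM in the combination and 4.34 FPKM with enzalutamide. ZMAT3, which encodes an RNA-binding protein, was at 27.3 FPKM in the combination against 4.91 FPKM with enzalutamide. TP53INP1 was the member on the other side, at -0.32.

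Cell death genes were split. Of 11 pro-apoptotic BCL2 family genes 4 were higher and 3 lower, with a median of 0.72. BBC3, which encodes PUMA, was at 7.54 FPKM in the combination against 1.39 FPKM with enzalutamide. HRK, another sensitizer of the family, was at 6.41 FPKM in the combination against 0.315 FPKM with enzalutamide. The level filter includes the combination library, so a gene this low with enzalutamide can be kept through its level there. BAX, a pore former, was at 22.2 FPKM in the combination against 7.77 FPKM with enzalutamide. BIK, BOK and BID lay on the other side, 5.06-fold, 4.80-fold and 2.96-fold lower in the combination. The protective genes BCL2L1 and MCL1 differed by 1.10 and 0.17. Among death receptors and caspases, 3 of 14 were higher and 1 lower, with a median of 0.31: TNFRSF10B, the receptor DR5, had 113 FPKM in the combination and 48.4 FPKM with enzalutamide. Secreted stress factors had 4 of 7 higher and 0 lower, for example GDF15, a stress hormone of the TGF-beta family, at 71.1 FPKM in the combination against 19.8 FPKM with enzalutamide. FGF21, a metabolic hormone, was at 27.0 FPKM in the combination against 7.35 FPKM with enzalutamide.

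Genes of redox and iron handling were higher in 9 of 16 NRF2 targets, with 0 lower and a median of 1.39. HMOX1, heme oxygenase, stood at 59.2 FPKM in the combination and 5.71 FPKM with enzalutamide. FTH1, the ferritin heavy chain, was at 1861 FPKM in the combination against 196 FPKM with enzalutamide, with its many processed pseudogenes making that value uncertain. GCLM, a subunit of the first enzyme of glutathione synthesis, had 100.2 FPKM in the combination against 11.8 FPKM with enzalutamide, while its catalytic partner GCLC had 3.61 FPKM in the combination against 2.96 FPKM with enzalutamide. The iron exporter SLC40A1 and the ferrireductase STEAP3 were lower, at -1.04 and -2.06.

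Protein disposal outside the reticulum followed in part. Autophagy genes were higher in 8 of 16, with 0 lower and a median of 1.05, led by cargo receptors: OPTN at 49.0 FPKM in the combination against 5.02 FPKM with enzalutamide. SQSTM1 (p62) was at 211 FPKM in the combination against 25.3 FPKM with enzalutamide. MAP1LC3B, an autophagosome coat gene, had 65.0 FPKM in the combination and 11.2 FPKM with enzalutamide, whereas the core genes ATG5, ATG7 and BECN1 differed by 0.25, 0.17 and 0.28. Lysosomal genes were mostly within log2 1 (7 of 24 higher, 1 lower, median 0.38). Of the 7 higher genes 5 were the factors MITF, TFEB and TFE3 and the nutrient-sensing GTPases RRAGC and RRAGD, with MITF at 7.32 FPKM in the combination against 1.56 FPKM with enzalutamide and RRAGD at 15.3 FPKM in the combination against 3.89 FPKM with enzalutamide; GPNMB, a target of the MITF family, stood at 52.1 FPKM in the combination and 2.83 FPKM with enzalutamide. Proteasome genes had 5 of 18 higher, 0 lower and a median of 0.72, with PSMC4 at the top (1.37). Cytosolic heat shock genes had no common direction (2 of 14 higher, 3 lower, median 0.03): BAG3 and DNAJB1, both co-chaperones, differed by 1.17 and 1.23, and HSPA8, the constitutive cytosolic HSP70, was at 114 FPKM in the combination against 402 FPKM with enzalutamide. HSPA5 of the reticulum and HSPA8 thus stood on opposite sides. HSPA1B, another cytosolic HSP70, was near equal, at 20.5 FPKM in the combination and 21.5 FPKM with enzalutamide.

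Immediate early transcription factors were higher in 7 of 9 genes kept and lower in 1, with a median of 1.51. Beside ATF3, JUNB had 87.6 FPKM in the combination and 12.5 FPKM with enzalutamide. JUN was at 64.6 FPKM in the combination against 18.2 FPKM with enzalutamide, whereas FOS, FOSB and EGR1 did not reach the level filter. MAP kinase phosphatases and receptor feedback genes had 4 of 10 higher and 1 lower (median 0.64), led by DUSP5 at 12.2 FPKM in the combination against 1.18 FPKM with enzalutamide. In the NF-kB list 4 of 8 were higher and 0 lower (median 0.94). The subunit gene RELB stood at 7.63 FPKM in the combination and 0.455 FPKM with enzalutamide, and can be kept through its level in the combination. The inhibitor gene NFKBIB was at 30.8 FPKM in the combination against 4.92 FPKM with enzalutamide. Of 9 interferon response genes 5 were higher and 1 lower (median 1.06), with IRF1 at 4.77 FPKM in the combination against 0.281 FPKM with enzalutamide and IFI6 2.17-fold lower. Metallothioneins and metal handling genes had 5 of 6 higher and 1 lower, the zinc importer SLC39A10 (-1.94). Among the higher ones was MT2A, a zinc and copper buffer, at 249 FPKM in the combination and 99.9 FPKM with enzalutamide; reads of this family may be shared between members.

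**Figure D2:**
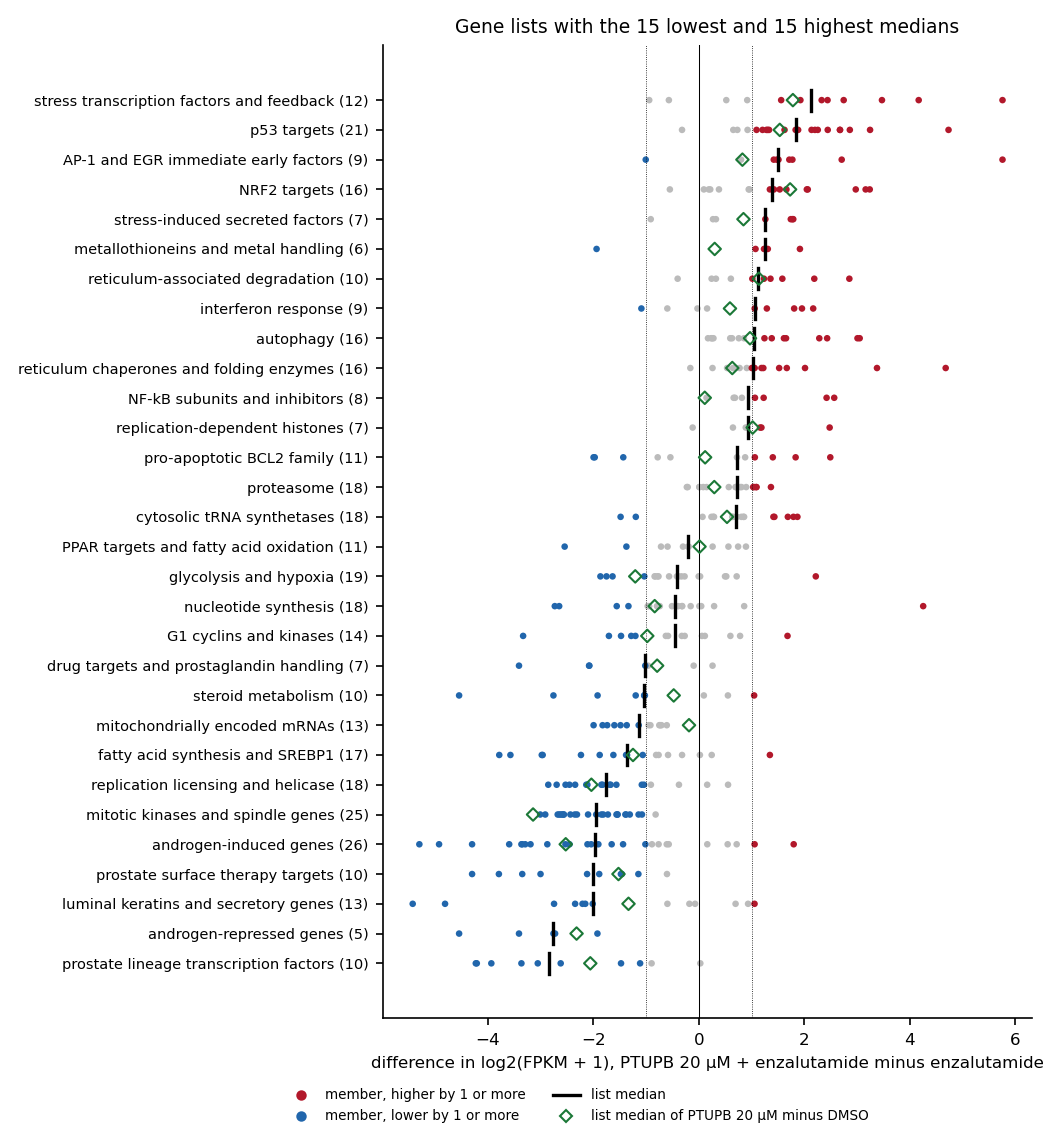
Gene lists with at least 5 genes kept, the 15 with the highest and the 15 with the lowest medians, ordered by median; each point is a gene's difference in log2(FPKM + 1), combination minus enzalutamide, the black bar is the list median and the green diamond the list median of PTUPB at 20 µM minus DMSO. Stress transcription factors (median 2.13) and p53 targets (1.84) stand at the top, prostate lineage factors (-2.84) and androgen-repressed genes (-2.76) at the bottom, against a median of 0.01 over all genes.

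On the other side stood the identity of the cells. Of 10 prostate lineage transcription factors kept, 8 were lower and 0 higher, with the lowest median of any list with 5 or more genes kept, -2.84. FOXA1, which opens chromatin for other factors, was at 3.12 FPKM in the combination against 75.5 FPKM with enzalutamide, 24.2-fold lower (interval 21.2 to 27.7). SPDEF, an ETS factor of secretory epithelium, was at 0.797 FPKM in the combination against 32.8 FPKM with enzalutamide. HOXB13, the prostate homeobox factor, was at 7.29 FPKM in the combination against 68.0 FPKM with enzalutamide. GATA2 and GRHL2 were lower by less (-1.11 and -1.48), and ONECUT2 was near equal, at 1.26 FPKM in the combination and 1.21 FPKM with enzalutamide.

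Androgen-induced genes, already under the drug in both libraries, were lower in 17 of 26 and higher in 2, with a median of -1.97. KLK3, prostate-specific antigen, had 0.458 FPKM in the combination and 56.6 FPKM with enzalutamide, 124-fold lower (interval 90.3 to 174), with the reads of its paralog KLK2 not separable with certainty. TMPRSS2, the membrane protease gene of many prostate cancer fusions, stood at 6.50 FPKM in the combination against 72.5 FPKM with enzalutamide. ACPP, prostatic acid phosphatase, had only 2 fragments in the combination library, or 0.0260 FPKM, against 30.3 FPKM with enzalutamide. FKBP5, a co-chaperone of steroid receptors and a classical androgen target, was within log2 1 at -0.61 (3.73 FPKM in the combination against 6.21 FPKM with enzalutamide), and ZBTB10 and ELL2 were higher, at 1.80 and 1.06.

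Genes that androgen represses did not stand opposite to these. All 5 kept of the 7 matched were lower, with a median of -2.76, so that both classes lay on the same side among genes kept. The level filter includes the enzalutamide library, so a gene near 0 in the combination can be kept through its level there. UGT2B15, which inactivates androgens by glucuronidation, had 0 fragments in the combination and 22.4 FPKM with enzalutamide, at least 285-fold lower when the 0 is set to 3 fragments; its reads may be shared within the UGT2B family. OPRK1, an opioid receptor gene, was at 0.0760 FPKM in the combination against 3.08 FPKM with enzalutamide. DDC, aromatic amino acid decarboxylase, was at 0.156 FPKM in the combination against 6.66 FPKM with enzalutamide.

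Secretory and surface genes of the luminal cell were lower as well. CRISP3, a secreted protein of prostate and saliva, had 0 fragments in the combination and 42.1 FPKM with enzalutamide, at least 579-fold lower on the same floor, and SPON2, a secreted matrix protein, 10.2 FPKM in the combination against 314 FPKM with enzalutamide. Luminal keratins and secretory genes had 7 of 13 lower and 1 higher (median -2.01). The keratins were divided: KRT18 was at 107 FPKM in the combination and 50.7 FPKM with enzalutamide and KRT8, its partner, at 82.1 FPKM in the combination against 42.5 FPKM with enzalutamide, while KRT19 was 9.97-fold lower. The adhesion genes CDH1 and EPCAM differed by 0.70 and -0.60. Of 10 genes for surface proteins used as therapy targets 9 were lower and 0 higher (median -2.01). FOLH1, which encodes prostate-specific membrane antigen, was at 40.8 FPKM in the combination and 426 FPKM with enzalutamide. STEAP1 was at 12.8 FPKM in the combination against 191 FPKM with enzalutamide, and the receptor ERBB2 at 6.40 FPKM in the combination against 58.4 FPKM with enzalutamide. DLL3 was the exception at -0.60, and 12 of 13 neuroendocrine genes, CHGA and SYP among them, did not reach the level filter.

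Other genes among the 12 largest negative differences reach beyond the prostate programme. MAB21L4 was at 0.492 FPKM in the combination and 51.9 FPKM with enzalutamide. DIO1, the thyroid hormone deiodinase, had 0.454 FPKM in the combination against 36.1 FPKM with enzalutamide. SLC22A3, an organic cation transporter, was at 2.39 FPKM in the combination against 80.0 FPKM with enzalutamide. These genes serve unlike functions and were all far lower in the combination. BAMBI, a pseudoreceptor that dampens TGF-beta signals, was at 5.30 FPKM in the combination against 147 FPKM with enzalutamide. ACKR3, a scavenger receptor for chemokines, had 3 fragments in the combination and 24.4 FPKM with enzalutamide. Each of these was above 10 FPKM with enzalutamide, a level that the naming rule asks of any lower gene.

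On the positive side the same rule named further genes. HOXB9, a homeobox gene, was at 28.2 FPKM in the combination against 0.672 FPKM with enzalutamide. GEM, a small GTPase gene, was at 21.4 FPKM in the combination against 0.588 FPKM with enzalutamide. SLC30A2, a zinc transporter gene, was at 18.8 FPKM in the combination against 0.486 FPKM with enzalutamide. All of these were below 1 FPKM with enzalutamide. CHST1, a sulfotransferase gene, was at 13.5 FPKM in the combination against 0.356 FPKM with enzalutamide. UPP1, uridine phosphorylase, had 44.9 FPKM in the combination and 1.40 FPKM with enzalutamide. H3.Y, a histone variant with close relatives, had 17.6 FPKM in the combination against 0.181 FPKM with enzalutamide, the enzalutamide value resting on 5 fragments.

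Proliferation genes were lower almost without exception late in the cycle. Of 25 mitotic genes 24 were lower and 0 higher (median -1.95); CDC20, an activator of the anaphase-promoting complex, was within log2 1. CDK1, the mitotic kinase, had 8.17 FPKM in the combination and 53.5 FPKM with enzalutamide. CCNA2, cyclin A, was at 0.0974 FPKM in the combination against 7.84 FPKM with enzalutamide. MKI67, the Ki-67 antigen, was at 0.813 FPKM in the combination against 8.27 FPKM with enzalutamide. Replication licensing and helicase genes were lower in 14 of 18 and higher in 0 (median -1.76), for example MCM3 at 2.25 FPKM in the combination against 22.6 FPKM with enzalutamide, while CDC6, which loads the helicase, differed by 0.55. The G1 list was mixed (5 of 14 lower, 1 higher, median -0.45). CCND1, cyclin D1, stood at 3.87 FPKM in the combination and 48.1 FPKM with enzalutamide, whereas CDKN1B, the inhibitor p27, was at 65.1 FPKM in the combination against 19.6 FPKM with enzalutamide and CDK4 differed by 0.11. In nucleotide synthesis 4 of 18 were lower and 1, the salvage gene UPP1, was higher (median -0.45), beside 15.8% lower and 13.5% higher of all genes kept. RRM2, a ribonucleotide reductase subunit, was at 0.102 FPKM in the combination against 6.33 FPKM with enzalutamide. IMPDH2, of guanine nucleotide synthesis, differed by 0.05.

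Mitotic genes share a promoter element, the cell cycle homology region, TTTGAA, which the DREAM and MuvB complexes are known to read. It was found on either strand in 12 of the 20 promoters matched for this list (60%), against 833 of 9257 promoters of all genes kept (9.0%) and 4212 of all 27305 (15.4%). Among genes kept it occurred in 12% of the promoters of lower genes and in 7.74% of those of higher genes. These windows are shown because they lie within 50 bases before the start, with the motif in capitals.
BUB1B (chr15:40161036-40161061, plus strand): gaccgttaaaTTTGAAacttggcggc
CCNB2 (chr15:59105107-59105132, plus strand): cgacgcggtaTTTGAAtcctggaaca
PLK1 (chr16:23678850-23678875, plus strand): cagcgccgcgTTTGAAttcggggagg
MKI67 (chr10:128126455-128126480, minus strand): agcgccagaaTTTGAAtcttcgtttt
BUB1B, a spindle checkpoint kinase, was at 0.743 FPKM in the combination against 9.70 FPKM with enzalutamide. CCNB2, cyclin B2, was at 5.57 FPKM in the combination against 16.1 FPKM with enzalutamide. PLK1, a mitotic kinase, was at 2.45 FPKM in the combination against 11.1 FPKM with enzalutamide.

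MYC, a transcription factor that drives growth, was at 3.27 FPKM in the combination and 94.5 FPKM with enzalutamide (28.9-fold lower, interval 24.9 to 33.7). Its partner MAX was near equal (0.33), and the antagonist MXD1 was higher, 4.64 FPKM in the combination against 0.563 FPKM with enzalutamide. The ribosome genes that MYC is known to serve were not lower in step: 1 of 19 nucleolar biogenesis genes was lower and 1 higher (median -0.17), and of 23 cytosolic ribosomal protein genes 0 were past log2 1 in either direction (median 0.35). Mitochondrial ribosomal protein genes had 1 of 18 higher and 0 lower.

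Lipid synthesis was divided by branch. Of 17 fatty acid synthesis genes 10 were lower and 1 higher (median -1.36). SREBF1, the transcription factor of this branch, was at 9.48 FPKM in the combination and 124 FPKM with enzalutamide. FASN, fatty acid synthase, was at 26.3 FPKM in the combination against 212 FPKM with enzalutamide. FADS2, a desaturase, was at 7.07 FPKM in the combination against 110.5 FPKM with enzalutamide. ME1, malic enzyme, a source of NADPH that is also in the NRF2 list, was the higher one at 1.35. Cholesterol synthesis genes, the domain of SREBF2, were within log2 1 in 14 of 17, with 3 lower, 0 higher and a median of 0.11: HMGCS1 differed by 0.61, and SREBF2 itself was at 27.3 FPKM in the combination against 76.4 FPKM with enzalutamide. Fatty acid oxidation had 2 of 11 lower, near the 15.8% of all genes kept. One of the 2 was CPT1A, which admits fatty acids to mitochondria (6.68 FPKM in the combination against 43.8 FPKM with enzalutamide).

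Energy genes of the nucleus differed less than fatty acid synthesis genes. Glycolysis and hypoxia genes had 4 of 19 lower and 1 higher (median -0.42), beside 15.8% lower and 13.5% higher of all genes kept. HK2, hexokinase, was at 54.2 FPKM in the combination and 10.9 FPKM with enzalutamide. PKM, pyruvate kinase, was at 32.2 FPKM in the combination against 102 FPKM with enzalutamide. Nuclear respiratory chain genes were within log2 1 in 23 of 26. The 13 mRNAs of the mitochondrial genome were lower in 7 and higher in 0, with a median of -1.14; fragments of the mitochondrial genome made up 7.12% of the combination library and 12.2% of the enzalutamide library, against 5.83% with PTUPB at 20 µM and 6.47% with DMSO. MT-CO3 was at 2731 FPKM in the combination and 10905 FPKM with enzalutamide, beside 2932 FPKM with PTUPB at 20 µM and 5174 FPKM in DMSO. The mitochondrial share was also high with PTUPB at 10 µM, 13.8% together with enzalutamide and 12.4% without it, so that the 3 low libraries were DMSO and both 20 µM libraries. The part of a single library in the difference was not tested.

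The enzymes that PTUPB is made to inhibit were low or listed at 0 as transcripts. PTGS2, cyclooxygenase-2, had 0 FPKM in both libraries. EPHX2, soluble epoxide hydrolase, was at 3.62 FPKM in the combination and 8.35 FPKM with enzalutamide, 2.31-fold lower. PTGS1, cyclooxygenase-1, had 0 fragments in the combination against 3.22 FPKM with enzalutamide, at least 114-fold lower on the floor of 3 fragments. PLA2G2A, a secreted phospholipase that releases fatty acids for prostaglandin synthesis, was at 1.84 FPKM in the combination against 29.3 FPKM with enzalutamide. EPHX1, the microsomal epoxide hydrolase, was at 260.0 FPKM in the combination against 508 FPKM with enzalutamide. In the whole list 4 of 7 genes kept were lower and 0 higher (median -1.02). Steroid metabolism had 7 of 10 lower and 1 higher, AKR1C3, which makes testosterone from a precursor (1.64 FPKM in the combination and 0.273 FPKM with enzalutamide). Carbonic anhydrases, the enzymes that many sulfonamide drugs inhibit, had 3 of 4 genes kept lower and 1 higher, CA5B (1.19), with CA12 at 1.49 FPKM in the combination against 30.6 FPKM with enzalutamide.

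With enzalutamide present throughout, the levels at 0, 10 and 20 µM PTUPB show where in the dose range these differences lay. From 0 to 10 µM only 2.24% of genes were higher and 1.57% lower, against 13.5% and 15.8% from 0 to 20 µM; both steps share the enzalutamide library, so they are given side by side and not correlated. HSPA5 had 403, 574 and 10392 FPKM at 0, 10 and 20 µM, and ATF3 had 7.32, 9.99 and 450.5 FPKM. In these stress genes nearly the whole difference lay above 10 µM. CDKN1A was flat up to 10 µM (48.4, 50.4 and 469 FPKM), as were FOXA1 (75.5, 76.3 and 3.12 FPKM) and FOLH1 (426, 481 and 40.8 FPKM). Other genes already differed at 10 µM. KLK3 had 56.6, 19.0 and 0.458 FPKM, TMPRSS2 72.5, 30.5 and 6.50 FPKM, and FTH1 196, 537 and 1861 FPKM. The mitotic list was the clearest case, with 22 of 25 genes lower at 10 µM (median -1.38) and 24 of 25 at 20 µM (median -1.95), while the p53 list had 1 of 21 higher at 10 µM and 17 at 20 µM. MKI67 had 8.27, 3.30 and 0.813 FPKM over the 3 doses. CDC20 took another course, with 30.3, 9.25 and 16.7 FPKM, lowest at 10 µM.

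**Figure D3:**
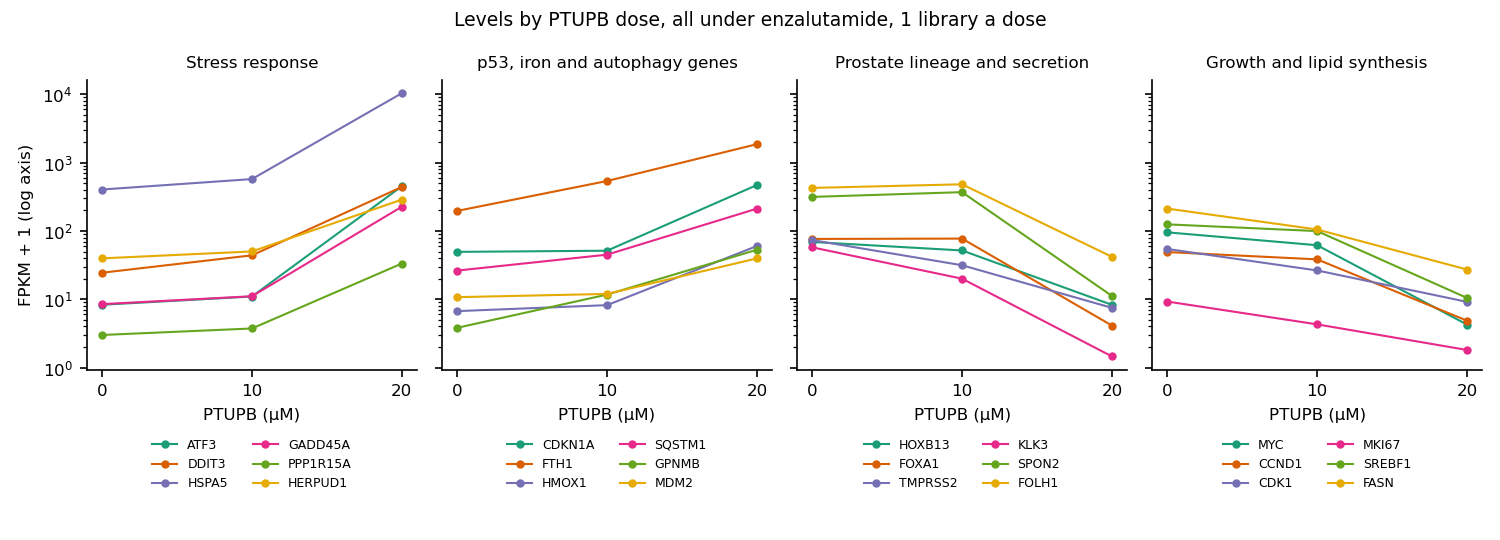
Levels of 24 genes, FPKM + 1 on a log axis, at 0, 10 and 20 µM PTUPB with enzalutamide in every library, 1 library a dose, lines joining the 3 values of a gene. Stress genes such as ATF3 and HSPA5 and the lineage gene FOXA1 are nearly flat between 0 and 10 µM and steep after it, while KLK3, TMPRSS2, FTH1 and MKI67 already differ at 10 µM.

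The same PTUPB step can be read without enzalutamide, from PTUPB at 20 µM and DMSO, a pair that shares no library with the first. There 9.47% of genes were higher and 12.7% lower. Of the 1752 genes higher in the combination over enzalutamide, 790 were also higher in that pair, 45.1% of that list and 64.4% of the genes higher without enzalutamide. Of the 2047 lower genes 1141 were lower without enzalutamide too, 55.7% of one list and 69.6% of the other. Opposite directions past log2 1 were seen in 30 and 21 genes. The leading genes were alike in both pairs: ATF3 was at 205 FPKM with PTUPB at 20 µM against 4.62 FPKM in DMSO, and FOXA1 at 7.69 FPKM with PTUPB at 20 µM against 86.7 FPKM in DMSO.

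List medians show where the pairs differ in size. Lineage factors had a median of -2.84 under enzalutamide and -2.06 without it, and surface targets -2.01 and -1.53. Androgen-induced genes differed more without it, -1.97 under enzalutamide and -2.53 without it, and the mitotic list had -1.95 and -3.15. The summed level of the androgen-induced list was 1109 FPKM with enzalutamide and 1695 FPKM in DMSO, against 220 FPKM in the combination and 279 FPKM with PTUPB at 20 µM. That of the mitotic list was 377 FPKM with enzalutamide and 486 FPKM in DMSO. With PTUPB the mitotic sum was higher in the combination, at 86.1 FPKM, than with PTUPB at 20 µM alone, at 33.9 FPKM. FKBP5 was at 3.64 FPKM with PTUPB at 20 µM and 35.4 FPKM in DMSO, against 3.73 FPKM in the combination and 6.21 FPKM with enzalutamide. Metallothioneins had a median of 1.25 under enzalutamide and 0.30 without it, NF-kB genes 0.94 and 0.11, and cytosolic heat shock genes 0.03 and -0.80. Glycolysis genes were lower in 12 of 19 without enzalutamide (median -1.21) but in 4 of 19 under it. The differences between the pairs were not tested, since 4 libraries leave no spread to test against.

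**Figure D4:**
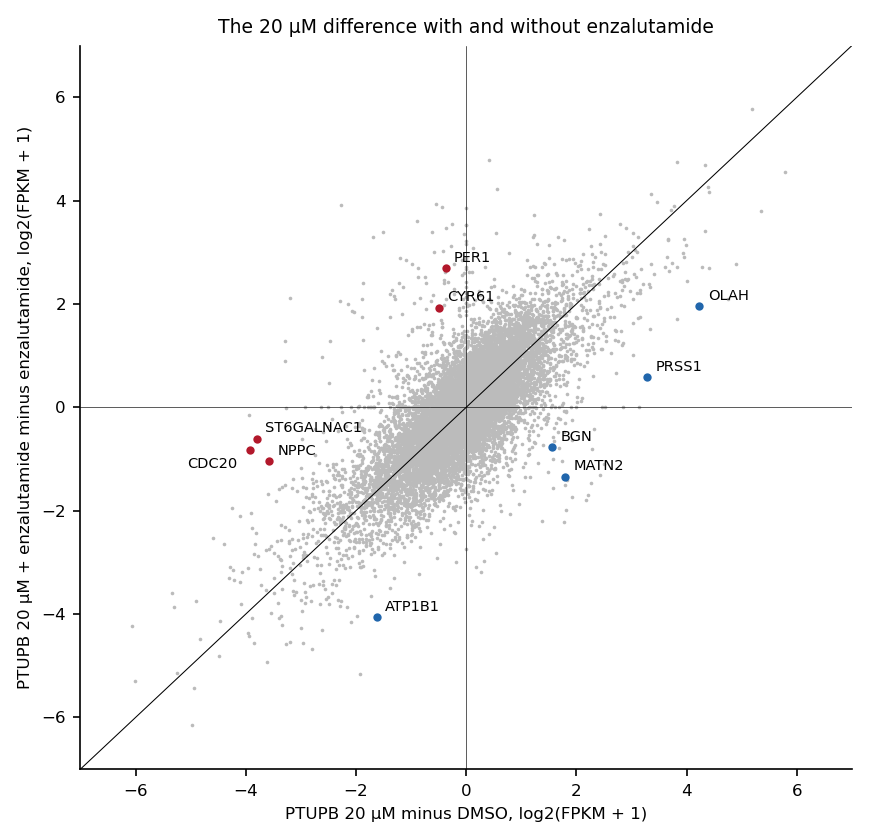
Each point is 1 of the 12960 genes, with the combination minus enzalutamide on the vertical axis and PTUPB at 20 µM minus DMSO on the horizontal axis, both in log2(FPKM + 1); the diagonal marks equal differences. The coloured genes depart most from the diagonal, 5 each way, among protein-coding genes with 10 FPKM or more in at least 1 of the 4 libraries, such as PER1 above it and MATN2 below it.

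The genes that departed most between the pairs, chosen for that, are given as a description. PER1, a circadian clock gene, was at 23.3 FPKM in the combination and 2.76 FPKM with enzalutamide, but at 3.23 FPKM with PTUPB at 20 µM and 4.49 FPKM in DMSO. CYR61, a matricellular gene, had the same form, 16.3 FPKM in the combination against 3.53 FPKM with enzalutamide and 1.84 FPKM with PTUPB at 20 µM against 3.03 FPKM in DMSO. MT1X, a metallothionein that is not among the genes that departed most, is added because it had this form too. It was at 23.5 FPKM in the combination against 5.47 FPKM with enzalutamide and 6.33 FPKM with PTUPB at 20 µM against 7.08 FPKM in DMSO. For these genes the combination was the high library of the 4. ST6GALNAC1, a sialyltransferase gene, differed more from its control without enzalutamide than under it: 0.285 FPKM in the combination against 0.955 FPKM with enzalutamide, and 0.663 FPKM with PTUPB at 20 µM against 22.2 FPKM in DMSO. CDC20 had 16.7 FPKM in the combination against 30.3 FPKM with enzalutamide and 1.79 FPKM with PTUPB at 20 µM against 41.4 FPKM in DMSO. Of the 25 mitotic genes it had the highest level in the combination library. NPPC, a natriuretic peptide gene, had 0.662 FPKM in the combination against 2.41 FPKM with enzalutamide and 0.119 FPKM with PTUPB at 20 µM against 12.4 FPKM in DMSO.

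On the other side of the diagonal, MATN2, a matrix protein gene, was lower in the combination than with enzalutamide (6.41 FPKM in the combination against 17.8 FPKM with enzalutamide) and higher with PTUPB at 20 µM than in DMSO (10.5 FPKM with PTUPB at 20 µM against 2.30 FPKM in DMSO). BGN, the proteoglycan biglycan, had 8.38 FPKM in the combination against 14.98 FPKM with enzalutamide and 9.97 FPKM with PTUPB at 20 µM against 2.71 FPKM in DMSO. ATP1B1, a sodium pump subunit, was at 30.9 FPKM in the combination and 529.5 FPKM with enzalutamide, 17.1-fold lower, and at 58.2 FPKM with PTUPB at 20 µM against 182 FPKM in DMSO. PRSS1, a trypsinogen gene with close paralogs, had 28.6 FPKM in the combination against 18.7 FPKM with enzalutamide and 53.4 FPKM with PTUPB at 20 µM against 4.58 FPKM in DMSO. OLAH, a thioesterase of fatty acid synthesis, was higher in both pairs, 3.41 FPKM in the combination against 0.135 FPKM with enzalutamide and 18.6 FPKM with PTUPB at 20 µM against 0.0425 FPKM in DMSO.

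**Figure D5:**
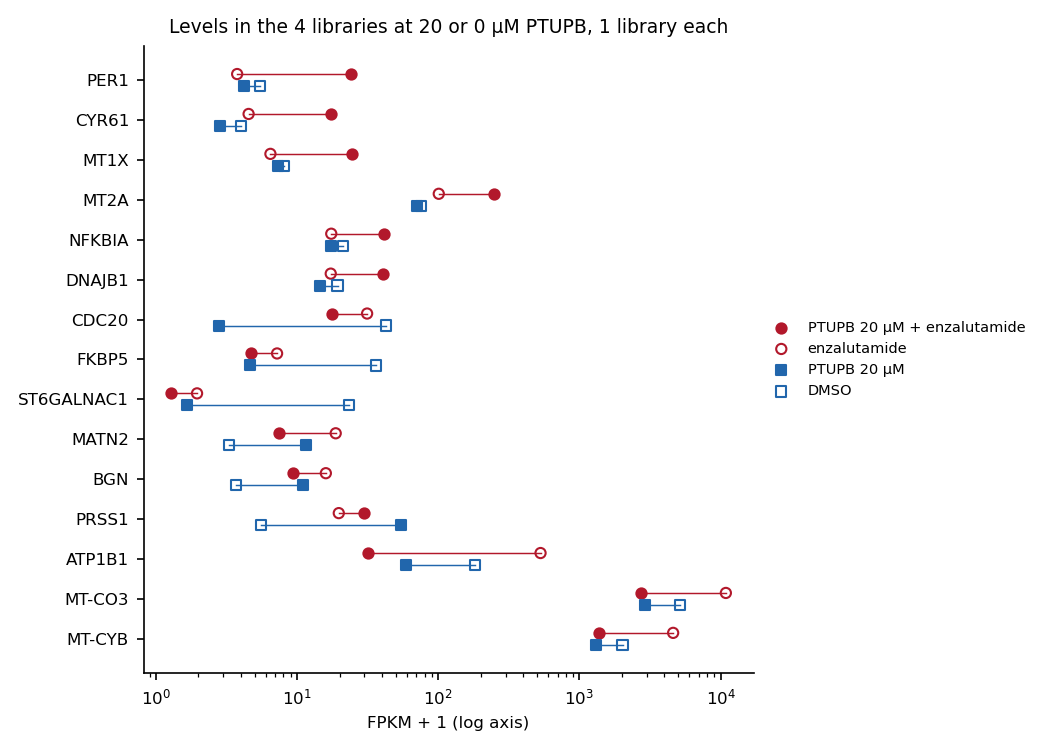
Levels of 15 genes, FPKM + 1 on a log axis, in the combination (filled circles), enzalutamide (open circles), PTUPB at 20 µM (filled squares) and DMSO (open squares), 1 library each, with a line joining the 2 libraries of a pair. PER1, CYR61 and MT1X are highest in the combination, MATN2 and BGN differ in opposite directions in the 2 pairs, and MT-CO3 and MT-CYB are highest with enzalutamide.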

How the data were processed

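RNA of C4-2B MDVR cells from 6 libraries, 1 a group, was sequenced as paired 150-base reads, per the labels' protocols. The authors deposited 1 table of FPKM per gene and library. HISAT and Cufflinks are named in the submitters' processing notes without versions or roles; the genome build and the use of strand are not given in the sources used here. Overlapping and antisense genes, and families with near-identical copies, are uncertain. All gene IDs matched GENCODE 29 (0 unmatched), whose GRCh38 coordinates are given. Values above 0 and worth under 100 fragments were checked. In each library 100% of these came out as whole multiples, within 0.05, of the worth of 1 fragment for the gene's length. Larger values were outside that check and were rounded to whole fragments. The recovered fragments, which are not independent molecules, gave depths and counting intervals (exact Clopper-Pearson, 95%). A library at 0 was set to 3 fragments for lower bounds, and no fold is given on 1 to 3 fragments.

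The genes followed had a mean of at least 1 FPKM across all 6 libraries, and log2(FPKM + 1) was subtracted between libraries, with no test. That mean includes both libraries compared, so a gene low in 1 of them can be kept, and counted in its list, through its level in the other. The members and lists were chosen with earlier results of these data known. Of 55 gene lists, matched by symbol or older symbol, 2 names found no gene. The genes named are, among protein-coding genes with 10 FPKM or more in at least 1 of the 2 libraries, the 12 largest differences each way; the 3 largest of each list; a fixed set (KLK3, FKBP5, MYC, HSPA5, ATF3, DDIT3, CDKN1A, MKI67, NR3C1, EPHX2, PTGS1 and PTGS2, of which NR3C1 did not reach the filter); and the 5 each way that depart most between the pairs with and without enzalutamide. Some genes these rules name are not reported here. Further list members were named after their values were seen. Motifs were searched in 27305 RefSeq promoters (GRCh38.p14), from 250 bases before to 50 after the start. Alternatives were other scalings, pseudocounts of 0.1 and 0.5 FPKM and other filters. The calculation was tested on simulated data, with Python 3.11.15, numpy 2.4.6, pandas 2.3.3, scipy 1.17.1 and matplotlib 3.10.9.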

Additional observations from a re-analysis of the deposited data

Results flagged for a closer look

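MATN2, a matrix protein gene, was drawn out from the named genes because its differences had opposite signs past log2 1 in the pairs with and without enzalutamide. It had been named for departing most between the pairs. Among all genes kept, 30 were higher under enzalutamide and lower without it, and 21 the reverse. The combination minus enzalutamide gave -1.34, and PTUPB at 20 µM minus DMSO gave 1.80, each from 1 library a side. The difference between the pairs was not tested.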

How the results depend on the processing

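The counts of 1752 higher and 2047 lower genes stayed within 1.5 times under every alternative except a mean of 5 FPKM or more, which tests fewer genes (1092 higher and 1119 lower of 7256). The share of higher genes among those past log2 1, 46.1% as reported, was 50.4% after scaling to TPM, 44.3% with median-of-ratios scaling, 48.2% with no filter, 49.4% with a mean of 5 FPKM or more, 49.0% with a mean of 1 FPKM over the 2 libraries compared, 41.6% scaled to all fragments of a library and 43.3% over protein-coding genes alone; the last 2 alternatives were chosen after seeing the data. Of 166 named genes, 161 stayed on their side of log2 1 after scaling to TPM and 5 crossed it; with median-of-ratios scaling 0 crossed it, and with a pseudocount of 0.1 FPKM 2 did. List medians were more sensitive: of 53, those that moved by 0.25 or more were 7 after scaling to TPM, 9 and 6 with pseudocounts of 0.1 and 0.5 FPKM, and 12 with no filter, beside 1 that reversed; with a mean of 5 FPKM or more 7 of 51 moved, with the mean over the 2 libraries 1 of 53, and with median-of-ratios scaling 0. The stromal marker median turned from 1.19, which is COL1A1 alone, to -0.00397 with no filter, which adds its other members. No paired analysis was possible because each group has 1 library, and for the same reason no replicate could be left out. Depth limits low genes: ratios on few fragments, such as H3.Y or CCNA2, have wide counting intervals, and the spread between cultures is unknown for every value.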

Other observations

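Short and non-coding RNA classes held more genes past log2 1 than protein-coding genes did. On a gene of 1 kb, 1 fragment was worth 0.0545 FPKM in the combination and 0.0354 FPKM with enzalutamide, and more on shorter genes. Short RNA genes therefore cross log2 1 on fewer fragments, and the part of fragment counting in these shares was not tested. Of 91 snoRNA genes kept, 37.4% were higher and 24.2% lower in the combination than with enzalutamide, and of 101 miRNA genes 28.7% and 27.7%, against 12% and 15.7% of 10693 protein-coding genes. Antisense genes (557 kept) had 17.2% higher and 13.5% lower. Among replication-dependent and linker histones, 3 of 7 genes kept were higher and 0 lower, with HIST1H1C, a linker histone, at 289 FPKM in the combination and 50.9 FPKM with enzalutamide; these genes have close copies. Class I antigen presentation had 1 of 9 higher and 1 lower (median 0.40). Among glutathione and ferroptosis defence genes 1 of 10 was higher and 2 were lower. Over all genes kept 13.5% were higher and 15.8% lower.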
